A study of Homo sapiens with 14 samples.

Results

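The aminoacyl-tRNA synthetases are the enzymes that load each amino acid onto its tRNA. The members were the protein-coding rows of the count table whose symbol is that of a synthetase (AARS1 to YARS2, EPRS1, FARSA, FARSB and TARS3), which gave 38 of 36555 gene IDs. Of these, 17 genes with a symbol ending in 2 encode mitochondrial enzymes, and the other 21 were counted as cytosolic. KARS1 and GARS1, counted among the cytosolic genes, each give both the cytosolic and the mitochondrial enzyme of lysine and of glycine, and QARS1 has no mitochondrial counterpart gene. All 38 passed the filter on low counts.

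The cells were HT-29, an established human colorectal adenocarcinoma line, and poly(A) RNA was sequenced in 14 libraries, after 72 h of treatment in the groups given TNF or a compound (the control's label names no time). The groups were TNF with liproxstatin-1 (2 libraries), TNF with ferrostatin-1 (3), TNF alone (2), liproxstatin-1 alone (2), ferrostatin-1 alone (2) and a control with 0.1% DMSO (3). Each compound was given at 20 uM, and TNF, a cytokine used here to induce apoptosis, at 100 ug/ml as the labels state it. Ferrostatin-1 and liproxstatin-1 are inhibitors of ferroptosis, a cell death driven by lipid peroxidation, and the question behind the groups was how their effects differ in TNF-treated cells. The replicates are called technical in the study's design text, so a p-value measures only the spread between these libraries, all from 1 cell line.

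In the cytosol, many synthetase genes are known targets of ATF4, the transcription factor of the amino acid and integrated stress responses, which binds C/EBP-ATF response elements. A group of cytosolic synthetases sits in the multisynthetase complex, held by the scaffold proteins AIMP1, AIMP2 and EEF1E1. The mitochondrial synthetases are encoded in the nucleus, are imported, and serve the few proteins made inside the organelle. WARS1, the cytosolic tryptophan enzyme, is in addition a well-known interferon gamma response gene.

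Libraries held 59913850 to 75838597 counts. Of 10 epithelial markers, 9 stayed above 1 CPM (counts scaled to a common library size) in every library (CDX1 did not), while of the leukocyte markers LYZ (762 to 1140 CPM), CD68 (7.10 to 21.1) and CD14 (8.29 to 12.6) were above 1 CPM in every library and PTPRC stayed below it. A pair of libraries stood apart in ways that touch the members. Between TNF library 1 and TNF library 3 the chi-square over degrees of freedom was 203, where the other pairs within groups gave 14.9 to 74.3, and the highest of those other pairs holds control library 2. The members' own values in both libraries are given below beside the comparisons they enter.

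The promoters are shown first because the letters of the ATF4-type element were found mainly in the cytosolic class. The 8 letters TGATGCAA, searched on both strands of the RefSeq windows (GRCh38.p14, 250 bases before to 50 after an annotated start), were found in 6 of the 16 cytosolic members that have a window, or 37.5%. They were found in 0 of 14 mitochondrial members, and 1.08% of 27305 genes hold them. Each line gives 54 bases of the gene's own strand, 5′ to 3′, with the matched letters in capitals (TTGCATCA is the same element read on the other strand).
AARS1, chr16:70289680-70289733, minus strand: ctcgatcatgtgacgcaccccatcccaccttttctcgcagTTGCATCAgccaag
CARS1, chr11:3057412-3057465, minus strand: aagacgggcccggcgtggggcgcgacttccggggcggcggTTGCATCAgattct
IARS1, chr9:92293697-92293750, minus strand: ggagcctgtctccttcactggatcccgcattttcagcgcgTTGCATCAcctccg
MARS1, chr12:57488024-57488077, plus strand: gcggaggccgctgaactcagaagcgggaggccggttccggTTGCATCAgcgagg
NARS1, chr18:57621809-57621862, minus strand: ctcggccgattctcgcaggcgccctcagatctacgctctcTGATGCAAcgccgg
TARS1, chr5:33440927-33440980, plus strand: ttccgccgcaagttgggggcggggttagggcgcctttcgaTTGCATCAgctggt

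In 5 of the 6 genes the element begins within 14 bases of the annotated start, and in AARS1 it begins 187 bases before it. With any base allowed at the sixth position (TGATGNAA), 7 of 16 cytosolic members and 1 of 14 mitochondrial members matched, GARS1 and YARS2 being added, against 4.46% of all genes. SARS1, KARS1 and WARS1 had windows without either pattern. YARS1 and 7 other members had no window in the table. A match is a description of these letters and says nothing on whether a factor binds there.

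Per kilobase of the longest coding transcript, the cytosolic genes were the more abundant class in control cells. The cytosolic genes ran from 2.39 CPM per kilobase (TARS3, a second cytosolic threonine enzyme) to 210 ± 64.0 (SARS1, the serine enzyme, SD, n = 3), with a median of 77.0. The mitochondrial genes ran from 4.70 ± 2.18 (VARS2, valine) to 34.0 ± 3.93 (IARS2, isoleucine), with a median of 13.8. For each of the 14 amino acids with genes of the same name numbered 1 and 2 (threonine as TARS1 and TARS2), the cytosolic gene was the higher in control cells, by 0.76 (histidine) to 3.84 (serine) on the log2 scale of CPM per kilobase. HARS1 and HARS2 are close paralogs that lie head to head, so the histidine pair is uncertain.

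Where TNF was given with either compound, cytosolic synthetase genes were lower than with that compound alone, and mitochondrial genes as a class were not. With TNF and liproxstatin-1 against liproxstatin-1, 10 of 21 cytosolic genes fell and none rose, where 7.03% of 22179 tested genes fell (edgeR quasi-likelihood test, adjusted p below 0.05). Of 17 mitochondrial genes, 1 rose, where 7.57% of tested genes rose, and none fell. With TNF and ferrostatin-1 against ferrostatin-1, 8 of 21 cytosolic genes fell and none rose, where 9.36% of tested genes fell, and 1 of 17 mitochondrial genes rose, where 8.76% rose.

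The 2 comparisons share no library, but they come from 1 model and share its estimate of each gene's spread. All 8 cytosolic genes that fell with TNF and ferrostatin-1 also fell with TNF and liproxstatin-1, and they make up 80.0% of the 10 that fell there: AARS1, CARS1, GARS1, IARS1, MARS1, SARS1, TARS1 and YARS1. The same overlap over all tested genes was not counted, so this one is a description only. The median log2 change of the cytosolic genes was -0.71 with TNF and liproxstatin-1 and -0.58 with TNF and ferrostatin-1. The mitochondrial medians were -0.07 and -0.02, and those of all tested genes 0.06 and 0.02. The calls of AARS1, CARS1, GARS1, MARS1, SARS1 and YARS1 held under every alternative run in these comparisons, 11 with liproxstatin-1 and 12 with ferrostatin-1.

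**Figure D1:**
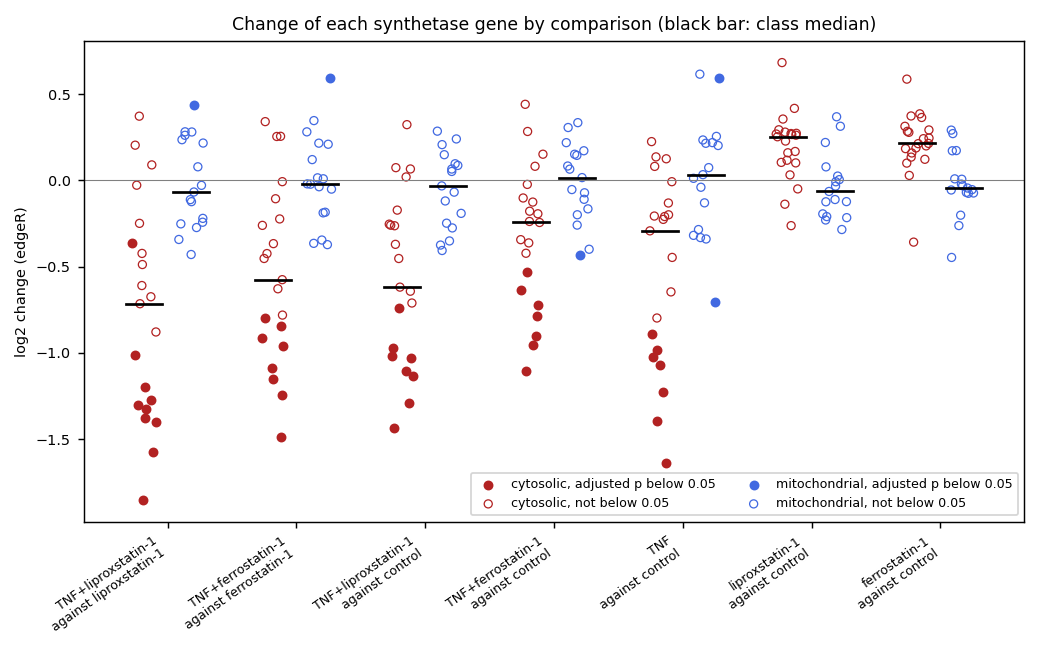
Log2 change (vertical axis, edgeR) of each cytosolic (red) and mitochondrial (blue) synthetase gene in 7 comparisons, with filled points where adjusted p was below 0.05 and a black bar at the class median. In the comparison of TNF and liproxstatin-1 with liproxstatin-1, the cytosolic median lay at -0.71 and the mitochondrial median at -0.07.

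SARS1 (ENSG00000031698, chromosome 1, 109213918 to 109238182, plus strand, in the deposited coordinates, with no build named) fell the most in both comparisons. It stood at 148 and 144 CPM with TNF and liproxstatin-1, against 515 and 538 with liproxstatin-1, a change of -1.85 ± 0.25 (log2, SE, adjusted p = 0.000738). Its level was 170, 205 and 176 CPM with TNF and ferrostatin-1, against 533 and 498 with ferrostatin-1, a change of -1.49 ± 0.22 (adjusted p = 0.000771). The highest library with TNF and a compound lay far below the lowest library of its compound alone.

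GARS1, the glycine enzyme (ENSG00000106105, chromosome 7, 30580533 to 30634033, plus strand), was at 168 and 172 CPM with TNF and liproxstatin-1, against 502 and 509 with liproxstatin-1 (log2 change -1.57 ± 0.16, adjusted p = 9.66e-05). Libraries with TNF and ferrostatin-1 had 207, 230 and 209 CPM, against 529 and 492 with ferrostatin-1 (-1.24 ± 0.14, adjusted p = 0.000112). No library of the TNF groups reached any library without TNF.

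AARS1, the alanine enzyme, had 265 and 270 CPM with TNF and liproxstatin-1, against 686 and 706 with liproxstatin-1. It had 300, 321 and 303 CPM with TNF and ferrostatin-1, against 657 and 652 with ferrostatin-1. The log2 changes were -1.38 ± 0.19 and -1.09 ± 0.17, and the groups did not overlap.

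CARS1, the cysteine enzyme, had 102 and 103 CPM with TNF and liproxstatin-1, against 263 and 277 with liproxstatin-1. It had 134, 155 and 144 CPM with TNF and ferrostatin-1, against 285 and 260 with ferrostatin-1. Both falls passed the test, at -1.40 ± 0.16 and -0.91 ± 0.14, and the libraries with TNF were the lower in each.

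IARS1, the isoleucine enzyme of the multisynthetase complex, had 273 and 268 CPM with TNF and liproxstatin-1, against 659 and 695 with liproxstatin-1. The values were 302, 341 and 318 CPM with TNF and ferrostatin-1, against 723 and 700 with ferrostatin-1. The changes were -1.32 ± 0.27 and -1.15 ± 0.24, and the first lost its call when either library with TNF and liproxstatin-1 was left out.

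MARS1, the methionine enzyme of the same complex, had 212 and 222 CPM with TNF and liproxstatin-1, against 493 and 502 with liproxstatin-1. It had 291, 308 and 285 CPM with TNF and ferrostatin-1, against 524 and 532 with ferrostatin-1. Its changes of -1.20 ± 0.17 and -0.84 ± 0.15 passed the test without overlap of groups. MARS1 overlaps DDIT3, a stress response gene, on the other strand, which stood at 10.7 and 9.99 CPM with TNF and liproxstatin-1, against 73.1 in each liproxstatin-1 library. The part of DDIT3 reads in the MARS1 change was not tested.

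YARS1, the tyrosine enzyme, had 177 and 184 CPM with TNF and liproxstatin-1, against 428 and 442 with liproxstatin-1. The values were 213, 234 and 218 CPM with TNF and ferrostatin-1, against 444 and 419 with ferrostatin-1. The groups stood apart in both comparisons, with changes of -1.27 ± 0.18 and -0.96 ± 0.16.

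TARS1, the main cytosolic threonine enzyme, had 224 and 208 CPM with TNF and liproxstatin-1, against 434 and 436 with liproxstatin-1. With TNF and ferrostatin-1 it had 255, 290 and 262 CPM, against 493 and 441 with ferrostatin-1. The changes of -1.01 ± 0.22 and -0.80 ± 0.20 passed the test, but the first lost its call without any 1 of its 4 libraries, and the second without either ferrostatin-1 library or without library 1 with TNF and ferrostatin-1.

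WARS1 (ENSG00000140105, chromosome 14, 100333790 to 100376343, minus strand) fell with TNF and liproxstatin-1, to 186 and 204 CPM, against 486 and 477 with liproxstatin-1 (-1.30 ± 0.33, adjusted p = 0.0211), a call lost without any 1 of the 4 libraries. With TNF and ferrostatin-1 it stood at 269, 273 and 244 CPM, against 442 and 459 with ferrostatin-1 (-0.78 ± 0.29, adjusted p = 0.089), without overlap but not past the threshold. The interferon gamma type genes that share its annotation moved the other way where they were called. Of 13 tested, 7 rose, 6 were not called and none fell with TNF and liproxstatin-1, where 7.57% of tested genes rose. With TNF and ferrostatin-1, 10 rose, 3 were not called and none fell, where 8.76% of tested genes rose. The genes of this list with the smallest p were ICAM1 and GBP4. ICAM1, an adhesion molecule, changed by 2.44 ± 0.12 and 3.14 ± 0.12 in these comparisons, and GBP4, a guanylate-binding protein, by 2.95 ± 0.20 and 3.60 ± 0.19.

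KARS1, the lysine enzyme, fell little, to 171 and 160 CPM with TNF and liproxstatin-1, against 206 and 220 with liproxstatin-1 (-0.36 ± 0.09, adjusted p = 0.0226, lost without any 1 library). With TNF and ferrostatin-1 it stood at 198, 206 and 180 CPM, against 235 and 219 with ferrostatin-1 (-0.22 ± 0.09, adjusted p = 0.0946). The other 11 cytosolic genes were not called by edgeR with TNF and liproxstatin-1, and the highest of their changes was 0.37 (RARS1). Of all 21 cytosolic genes, 3 had a fitted change above 0. Among those not called, EPRS1 had 168 and 166 CPM, against 303 and 310 with liproxstatin-1. LARS1 had 177 and 180 against 276 and 294, and NARS1 173 and 176 against 285 and 287. With voom these 3 were called, where it called 30.9% of tested genes. RARS1, the arginine enzyme, had 90.8 and 88.1 CPM with TNF and liproxstatin-1, against 70.5 and 67.8 with liproxstatin-1, and its adjusted p was 0.495.

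**Figure D2:**
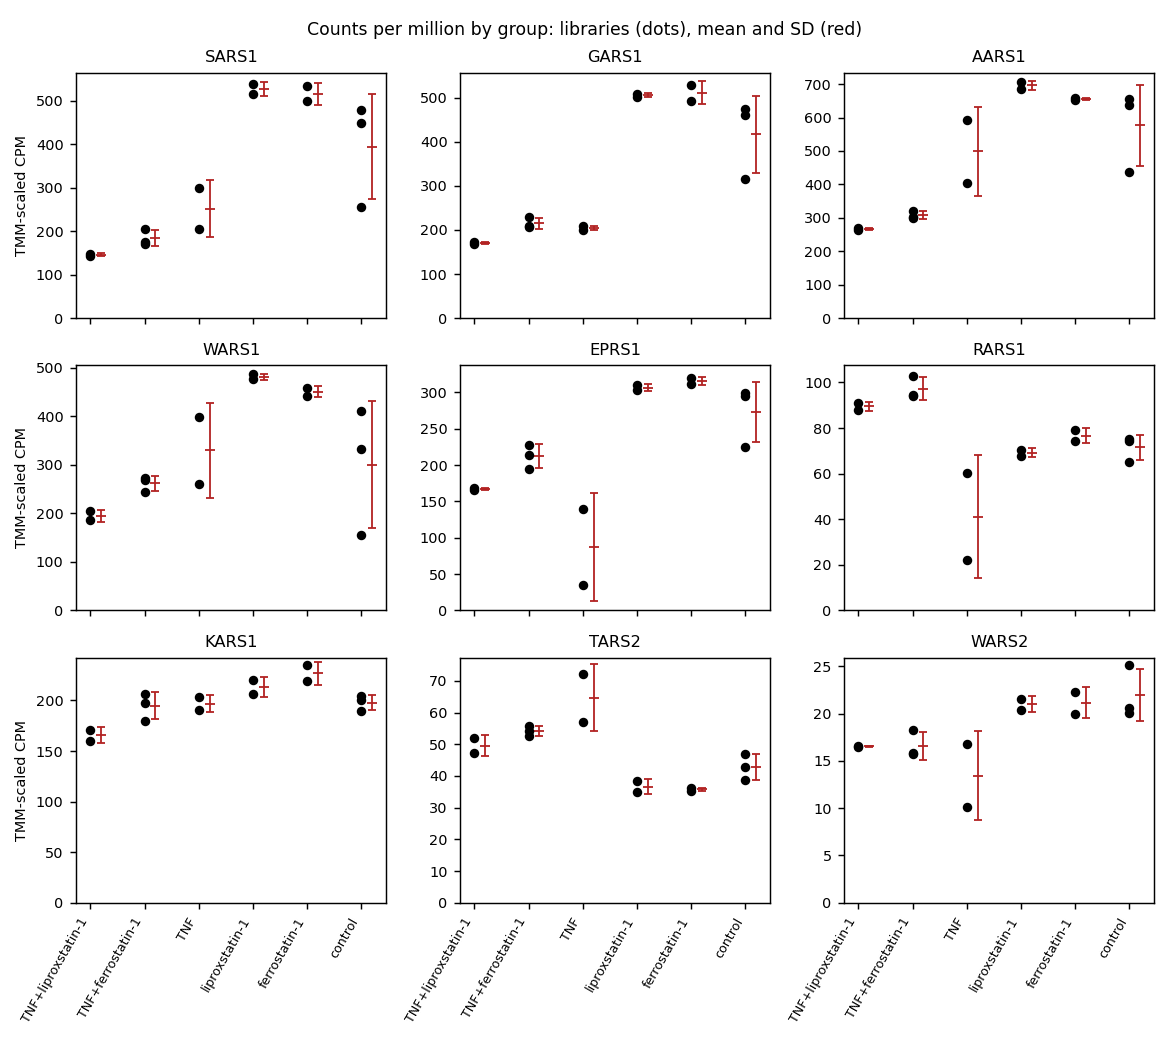
TMM-scaled CPM (vertical axes, from 0) of 9 synthetase genes in the 6 groups, with a dot per library and the mean and SD in red. SARS1 lies at 144 to 205 CPM in the 5 libraries with TNF and a compound and at 498 to 538 CPM in the 4 libraries with a compound alone, while TARS2 lies higher with TNF.

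By role, the falls were not limited to 1 kind of enzyme. Of the 8 members of the multisynthetase complex (a grouping added after the values were seen), 3 fell with TNF and liproxstatin-1 (IARS1, KARS1 and MARS1) and 2 with TNF and ferrostatin-1 (IARS1 and MARS1). Of the 13 cytosolic genes outside it, 7 and 6 fell. The medians were -0.52 and -0.34 inside the complex, and -1.01 and -0.78 outside it. The difference between these subgroups was not tested.

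Among mitochondrial genes, TARS2, the threonine enzyme (ENSG00000143374, chromosome 1, 150487364 to 150507609, plus strand), was the member that rose. It had 47.2 and 51.9 CPM with TNF and liproxstatin-1, against 34.9 and 38.4 with liproxstatin-1 (0.44 ± 0.13, adjusted p = 0.0427). It had 55.7, 54.1 and 52.6 CPM with TNF and ferrostatin-1, against 35.4 and 36.2 with ferrostatin-1 (0.60 ± 0.12, adjusted p = 0.00503). All libraries with TNF lay above those of the compound alone, while its cytosolic counterpart TARS1 went the other way. The call with liproxstatin-1 ended without the low-count filter and without any 1 of its libraries, and that with ferrostatin-1 without ferrostatin-1 library 1.

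The other 16 mitochondrial genes were not called by edgeR in these comparisons. With TNF and liproxstatin-1 their changes ran from -0.43 (NARS2, asparagine) to 0.28 at most. In that comparison DESeq2 called HARS2 and NARS2 besides TARS2, where it called 19.8% of tested genes. There voom added AARS2, IARS2 and LARS2, where it called 30.9%. With TNF and ferrostatin-1, DESeq2 called CARS2, HARS2 and NARS2 besides TARS2, where it called 23.0%. There voom added AARS2, IARS2 and WARS2 among others, where it called 32.6%. WARS2, the mitochondrial tryptophan enzyme, had 16.5 and 16.6 CPM with TNF and liproxstatin-1, against 20.4 and 21.6 with liproxstatin-1. Its adjusted p was 0.315 there, so a difference was not detectable at this spread.

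For single amino acids, the ratio of the cytosolic to the mitochondrial gene was lower with TNF and liproxstatin-1 than with liproxstatin-1 for 12 of 14 pairs, and lower with TNF and ferrostatin-1 than with ferrostatin-1 for 13 of 14. The differences ran from -1.93 (serine) to 0.44 (arginine) with liproxstatin-1 and from -1.50 (isoleucine) to 0.37 (arginine) with ferrostatin-1, in log2 of CPM per kilobase. SARS1 over SARS2 stood at 2.49 ± 0.12 with TNF and liproxstatin-1, against 4.42 in both libraries with liproxstatin-1 (SD, n = 2). The valine pair hardly differed (0.02 with liproxstatin-1 and -0.03 with ferrostatin-1). No test is given over the pairs.

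**Figure D3:**
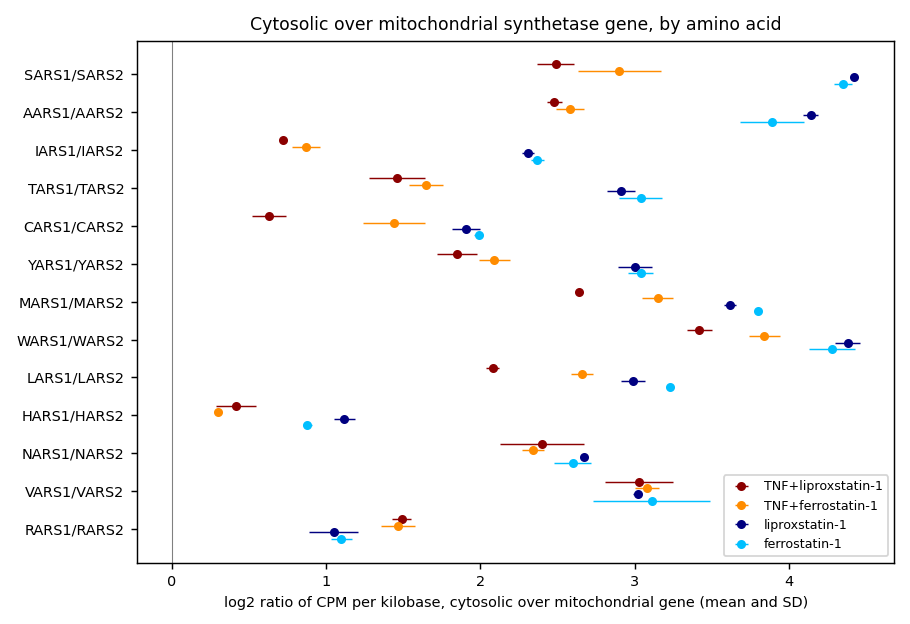
Log2 ratio of CPM per kilobase of the cytosolic over the mitochondrial gene (horizontal axis, mean and SD over the 2 or 3 libraries) for 13 amino acids in 4 groups. For serine the ratio was 2.49 with TNF and liproxstatin-1 against 4.42 with liproxstatin-1, and arginine at the bottom went the other way.

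Summed over the 21 genes, the cytosolic level was 3200 ± 2.28 CPM with TNF and liproxstatin-1, 3850 ± 156 with TNF and ferrostatin-1 and 3800 ± 129 with TNF, against 6410 ± 105 with liproxstatin-1, 6510 ± 175 with ferrostatin-1 and 5380 ± 942 in control (SD). The mitochondrial sum was 683 ± 3.83 CPM with TNF and liproxstatin-1, 706 ± 17.6 with TNF and ferrostatin-1 and 692 ± 7.10 with TNF, against 657 ± 11.9 with liproxstatin-1, 664 ± 19.5 with ferrostatin-1 and 690 ± 19.1 in control. The highest cytosolic sum with TNF (4030 CPM) lay below the lowest without it (4300 CPM, control library 2). The mitochondrial sums of all groups lay between 649 and 721 CPM.

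**Figure D4:**
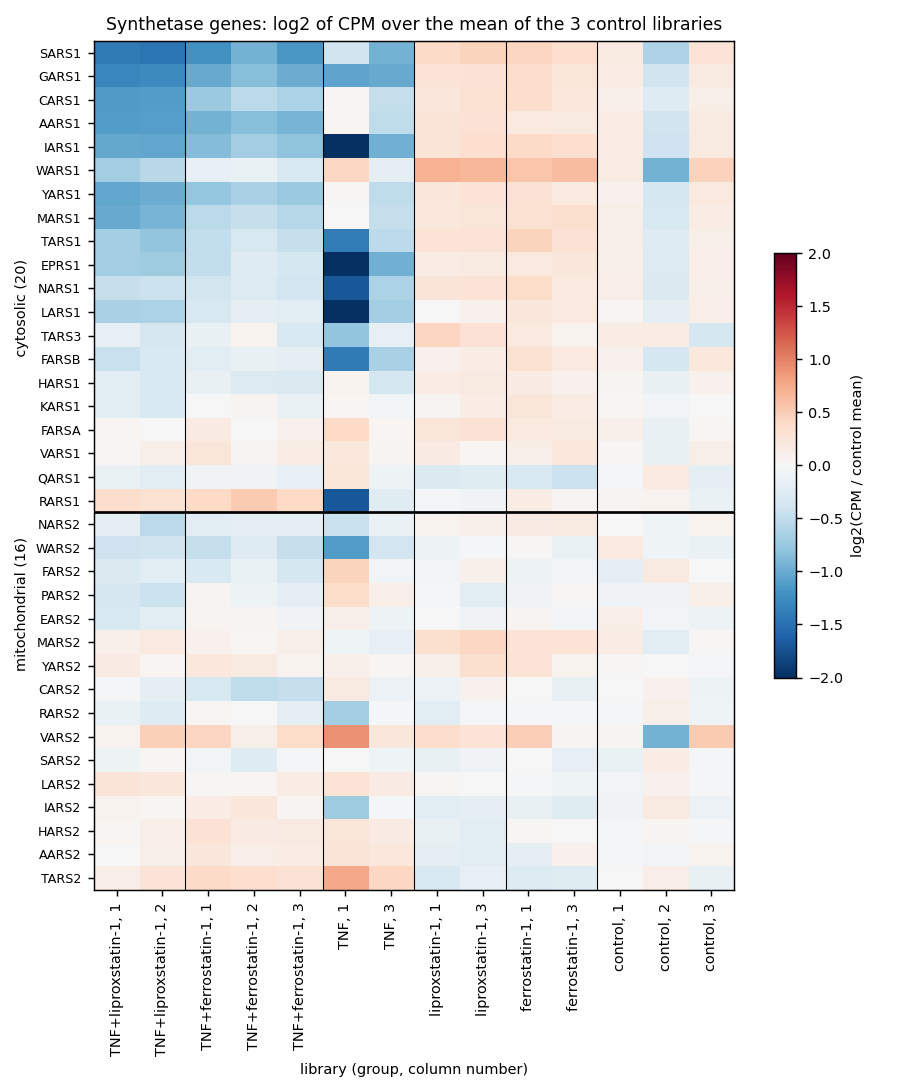
Log2 of CPM over the mean of the 3 control libraries (colour, cut at -2 and 2) for 20 cytosolic and 16 mitochondrial genes (rows) in 14 libraries (columns, by group). Blue cells mark most but not all cytosolic genes with TNF and a compound, with SARS1 on top and RARS1 above the control mean. TNF library 1 differs from TNF library 3 in many rows of both classes.

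Genes that act beside the synthetases were followed as lists. Of 27 ATF4 targets that are no synthetases (ATF4 itself is in the list), 24 fell and none rose with TNF and liproxstatin-1 against liproxstatin-1. Their median was -1.61, where 7.03% of tested genes fell and the median of all was 0.06. With TNF and ferrostatin-1 against ferrostatin-1, 24 fell and none rose (median -1.22), where 9.36% of tested genes fell and their median was 0.02. CHAC1, a glutathione-degrading enzyme, fell to 9.63 and 9.73 CPM with TNF and liproxstatin-1, against 111 and 112 with liproxstatin-1 (-3.52 ± 0.31). ATF4 itself changed by -1.81 ± 0.20 and -1.37 ± 0.18 in these comparisons. XPOT, the exporter of tRNA from the nucleus, changed by -1.36 ± 0.22 and -1.09 ± 0.20, and of its list of 6 genes for selenocysteine charging, editing and export 4 and 3 fell and none rose. With TNF alone against control, 7 of the 27 genes in the ATF4 list fell and 1 rose (median -0.51), where 6.44% of tested genes fell and 8.24% rose. ATF4 itself had 917 and 552 CPM in TNF, against 840, 636 and 823 in control.

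Of 6 cytosolic elongation factors, which serve the elongation step of translation, 4 fell with TNF and liproxstatin-1 and none rose. With TNF and ferrostatin-1, 5 fell and none rose, each set against the compound alone. In these comparisons 7.03% and 9.36% of tested genes fell. EEF2, the translocation factor, changed by -0.90 ± 0.10 and -0.86 ± 0.09. Of the 3 scaffold genes of the multisynthetase complex, AIMP2 fell with TNF and liproxstatin-1 (-0.63 ± 0.18), and none was called with TNF and ferrostatin-1. Of 11 mitochondrial translation factors 2 fell and none rose in each comparison, with TUFM, the mitochondrial elongation factor Tu, at -0.37 ± 0.10 and -0.29 ± 0.09. Of 4 genes that amidate or formylate charged mitochondrial tRNA, QRSL1 fell with TNF and liproxstatin-1 (-0.51 ± 0.16) and none was called with TNF and ferrostatin-1.

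Against the DMSO control the same direction was seen with wider control values. With TNF and liproxstatin-1 against control, 8 of 21 cytosolic genes fell and none rose, where 4.64% of tested genes fell, and no mitochondrial gene was called. With TNF and ferrostatin-1 against control, 7 of 21 cytosolic genes and 1 of 17 mitochondrial genes fell and none rose, where 7.81% of tested genes fell. These comparisons share the control libraries. CARS2, the mitochondrial cysteine enzyme, was the one mitochondrial gene that fell, to 39.4, 34.7 and 35.2 CPM with TNF and ferrostatin-1, against 49.5, 52.4 and 45.6 in control (-0.43 ± 0.11, adjusted p = 0.0193). It overlaps ING1, and its call ended without control library 1 or 2 or without library 2 or 3 with TNF and ferrostatin-1.

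Control library 2 was low for many cytosolic members. Of 21 cytosolic genes 17 were lower there than in the mean of control libraries 1 and 3, with a median log2 difference of -0.37 and the lowest at -1.25 for WARS1, which had 156 CPM there against 333 and 411. Of 17 mitochondrial genes 7 were lower, with VARS2 lowest at -1.26 (9.92 CPM against 19.9 and 27.6). ATF4 stood at 636 CPM in it and at 840 and 823 in the other controls. Without control library 2 the cytosolic median minus the mitochondrial median was -0.76 with TNF and liproxstatin-1 and -0.46 with TNF and ferrostatin-1, against -0.59 and -0.26 with it. Without control library 1, or without library 3 with TNF and ferrostatin-1, 5 members were called with TNF and ferrostatin-1 against control. In these fits 8.8% and 9.52% of tested genes were called.

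With TNF alone against control, 7 of 21 cytosolic genes fell and none rose, where 6.44% of tested genes fell, and of 17 mitochondrial genes 1 rose, where 8.24% rose, and 1 fell. The 7 were EPRS1, IARS1, LARS1, NARS1, GARS1, FARSB and TARS1, and their values set the pair of TNF libraries apart. EPRS1, the enzyme of glutamate and proline, had 35.3 CPM in TNF library 1 and 140 in TNF library 3, against 295, 225 and 299 in control (-1.64 ± 0.40, adjusted p = 0.0189, lost without control library 1 or 3). IARS1 had 136 and 284 CPM in the TNF libraries, against 615, 415 and 628 in control (-1.40 ± 0.26, adjusted p = 0.00417). TNF lay below control in both genes, but with a gap between its libraries as wide as that to control.

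GARS1 differed from these, with 201 and 208 CPM in TNF, against 461, 316 and 473 in control (-1.03 ± 0.14, adjusted p = 0.000684). TARS2 rose, with 72.2 and 57.2 CPM in TNF, against 42.9, 47.0 and 38.8 in control (0.59 ± 0.12, adjusted p = 0.00648). WARS2 had 10.1 and 16.8 CPM in TNF, against 25.1, 20.6 and 20.1 in control (-0.70 ± 0.19, adjusted p = 0.0293). The groups did not overlap in any of these 3 genes. The TARS2 call was lost with voom, and the WARS2 call with voom, without control library 1 and without TNF library 1.

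Several genes that fell with TNF and a compound were not called with TNF alone. SARS1 had 299 and 205 CPM in TNF, against 448, 256 and 479 in control (-0.65 ± 0.23, adjusted p = 0.0774), and the groups overlap through control library 2. AARS1 had 593 and 405 CPM in TNF, against 636, 438 and 655 in control (-0.21 ± 0.17, adjusted p = 0.46). WARS1 had 399 and 261 CPM in TNF, against 333, 156 and 411 in control (0.14 ± 0.29, adjusted p = 0.813). For these 3 genes TNF library 1 was the higher, where for EPRS1 and IARS1 it was the lower.

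The split between the TNF libraries followed base composition. Over the 38 members, the log2 difference of TNF library 1 from TNF library 3 had a Spearman rho of 0.79 with the GC content of the longest coding transcript, and over the 20028 tested genes with a GC value and a count above 0 in both libraries rho was 0.49. These are descriptions over genes that share 2 libraries. All 14 members with a GC content under 46% were lower in TNF library 1, with a median of -0.83 and the lowest at -1.99 (EPRS1, 43.2% GC). This cut was not set beforehand and lies where these values change sign, so the clean split is no test. Of the 24 others, 1 was lower (GARS1, at -0.05, with 48.6% GC), and their median was 0.31.

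**Figure D5:**
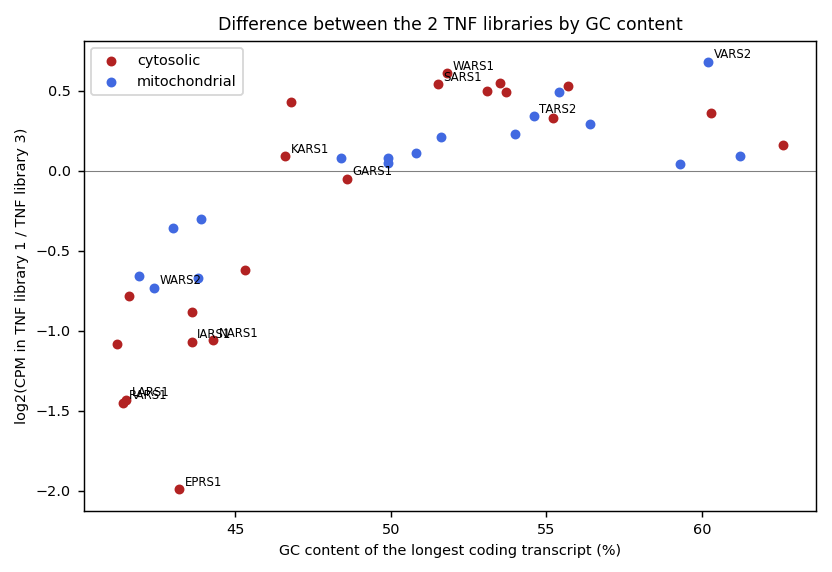
Log2 difference between TNF library 1 and TNF library 3 (vertical axis) against the GC content of the longest coding transcript (horizontal axis, %) for 21 cytosolic (red) and 17 mitochondrial (blue) genes. All 14 genes under 46% GC (a cut not set beforehand) lie below 0, down to -1.99 for EPRS1.

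The count with TNF alone changed with the libraries used. On the control and TNF libraries alone 0 members were called, where 1.95% of tested genes were. Without TNF library 3 the count was 19 members, where 31.2% of tested genes were called. With an offset for GC content and length it was 14 (1 higher, 13 lower), where 20.3% were called. Without TNF library 1 and control library 2 together it was 15 (1 higher, 14 lower), where 16.1% were called. In the last fit 14 of 21 cytosolic genes fell, AARS1, CARS1, MARS1, SARS1, WARS1 and YARS1 among them, where 8.55% of tested genes fell. Fibroblast markers, 5 in all, summed to 24.2 and 43.6 CPM in TNF, against 3.57 to 12.8 in control, with DCN and PDGFRB under 1 CPM in every library, and their part in the result was not tested.

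Neither compound alone moved a synthetase gene past the test. With liproxstatin-1 against control 0 of 38 members were called by edgeR, where 0.0586% of tested genes were, 5 had an unadjusted p below 0.05, DESeq2 called 1 (MARS2) and voom 2 (WARS1 and MARS2). With ferrostatin-1 against control 0 of 38 were called by edgeR, where 0.564% were, 5 had an unadjusted p below 0.05, DESeq2 called 1 and voom 2 (QARS1 is one of the 2). At the threshold of 0.05 unadjusted, 12.0% and 12.3% of tested genes passed. Of tested genes, DESeq2 called 2.31% with liproxstatin-1 and 3.59% with ferrostatin-1, and voom 6.6% and 7.23%. The cytosolic medians were 0.25 and 0.21 and the mitochondrial medians -0.06 and -0.04, where those of all tested genes were -0.02 and -0.01. Fitted values were above 0 for 18 and 20 of 21 cytosolic genes, WARS1 highest at 0.68 ± 0.29 and 0.59 ± 0.29. Both comparisons share control library 2, where 17 of 21 cytosolic genes were lower than in the other controls' mean. Genes measured in the same libraries are not replicates, and the share of all tested genes above 0 was not counted.

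Between the compounds, liproxstatin-1 against ferrostatin-1 gave 0 called members, where 0.104% of tested genes were called, and 0 with an unadjusted p below 0.05. DESeq2 and voom called 0 as well. The 95% interval of the SARS1 difference ran from -0.50 to 0.56, and that of GARS1 from -0.35 to 0.32, so changes of the size seen with TNF lie outside them.

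In the presence of TNF, liproxstatin-1 against ferrostatin-1 gave 0 called members by edgeR, where 0.766% of tested genes were called. There were 7 members with an unadjusted p below 0.05, against 8.60% of tested genes. The fitted value was below 0 for 21 of 21 cytosolic genes (median -0.24) and for 11 of 17 mitochondrial genes (median -0.06), where the median of all tested genes was 0.0. These genes were measured in the same libraries and are not replicates, and the share of all tested genes below 0 was not counted. CARS1 stood lowest, at 102 and 103 CPM with TNF and liproxstatin-1, against 134, 155 and 144 with TNF and ferrostatin-1, a difference of -0.50 with a 95% interval from -0.82 to -0.17 (adjusted p = 0.248). DESeq2 called 0, where it called 2.09% of tested genes. With voom CARS1 and MARS1 were called, where 3.67% of tested genes were called and 0.825% were lower. The fit on these groups alone called 6 members, all lower, where it called 2.86% of tested genes and 0.711% were lower.

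Set against TNF alone, each compound gave few calls, and their number changed with the TNF library used. With TNF and liproxstatin-1, CARS1 fell (-0.93 ± 0.16, adjusted p = 0.0392) and no other cytosolic gene was called, where 0.104% of tested genes fell. It had 102 and 103 CPM, against 229 and 162 in TNF. With TNF and ferrostatin-1, RARS1 and FARSB rose, where 1.77% of tested genes rose, and AARS1 and CARS2 fell, where 3.75% fell. RARS1 had 94.7, 103 and 93.9 CPM with TNF and ferrostatin-1, against 22.0 and 60.3 in TNF (1.24 ± 0.29, adjusted p = 0.0374). AARS1 had 300, 321 and 303 CPM with TNF and ferrostatin-1, against 593 and 405 in TNF (-0.70 ± 0.17, adjusted p = 0.0397). The groups stood apart, but the TNF library nearer to the treated ones was library 3 in both genes.

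Without TNF library 3, 26 members were called with liproxstatin-1 and 25 with ferrostatin-1, where 28.7% and 31.2% of tested genes were called. Without TNF library 1 the members called were 2 and 1, where 1.51% and 2.49% of tested genes were called, and without any 1 of the libraries with TNF and a compound they were 0. The test of whether the TNF change differs with a compound gave 0 called members for liproxstatin-1, where 0% of tested genes were called, and 0 for ferrostatin-1, where 0.00451% were. By unadjusted p below 0.05, 13 and 10 of 38 members passed, where 19.5% and 19.1% of tested genes did. DESeq2 called 7 and 4 members, where it called 5.87% and 6.0% of tested genes, and voom 2 and 0, where it called 0.933% and 0.0541%. Without TNF library 3 the same tests called 22 and 21 members, where 26.0% of tested genes were called in each.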

How the data were processed

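Libraries were made from poly(A) RNA with dUTP strand marking, per the labels' protocols. The authors deposited whole-number counts and FPKM per gene for 14 libraries. The submitters' processing notes name StringTie (1.3.4d), HISAT2 (2.0.4) and cutadapt (1.9), and DESeq2 and edgeR without a version. No source used here gives the build, annotation or strand setting of the counting, so overlapping genes and close paralogs are uncertain. Deposited FPKM implied lengths of 1.02 to 6.82 times the longest GENCODE 29 coding transcript, so levels between genes are CPM per kilobase of that transcript, and 6 FPKM columns that could be matched to a group only were not used.

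Counts were scaled by TMM and tested in 1 model of 6 group means over 22179 genes left by filterByExpr (edgeR 4.0.16, R 4.3.3, quasi-likelihood F test, Benjamini-Hochberg over all genes, threshold 0.05). The SE is the log2 change divided by the square root of F. The fit was tested on simulated data. The result was recomputed with all genes kept, with genes at 1 CPM or more in 3 libraries, with relative log expression scaling, with DESeq2 (1.42.0), with voom and quality weights (limma 3.58.1), on the compared groups alone, with the replicate number as a block, and with libraries left out. Chosen after seeing the data were an offset for GC content and length (98.1% of genes had a value) and leaving out control library 2 and TNF library 1 together.

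Library numbers are those of the count columns. Columns of the control and of TNF with each compound were matched to titles by number, the others by group. Promoter windows matched 30 of 38 members by symbol. Values per library are given for the strongest called member of each class and direction per comparison, members called in at least 4 comparisons, and WARS1, GARS1, WARS2 and KARS1. Some members enter the counts and medians but are not reported by name here. The members and lists were chosen with earlier results of these data known.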

Additional observations from a re-analysis of the deposited data

How the results depend on the processing

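Of 50 calls of single members, DESeq2 and the stricter filter kept 50, relative log expression scaling 49, the GC and length offset 48, no filter 46, voom 43 and the compared groups alone 36. Of 246 such calls tested with 1 library left out, 182 held. Where a group of 2 then had 1 library, that library was assumed to vary like the other groups. None of these 50 calls reversed. The share of all tested genes called shifted with the setting too, so the counts below do not describe the members alone. For TNF with ferrostatin-1 against ferrostatin-1 the main fit called 18.1%, DESeq2 23.0% and voom 32.6%. These groups alone gave 34.3% and the offset 24.8%. For TNF with liproxstatin-1 against liproxstatin-1 the main fit called 14.6%, voom 30.9%, these groups alone 30.5% and the offset 21.2%. For TNF with ferrostatin-1 against control the main fit called 14.1%, voom 36.5%, these groups alone 22.2% and the offset 19.2%. For TNF with liproxstatin-1 against control the main fit called 10.0% and voom 30.3%. Against TNF alone, the main fit called 5.52% for TNF with ferrostatin-1 and 0.343% for TNF with liproxstatin-1, and DESeq2 17.7% and 11.1%. Voom gave 0.0631% and 0.555% in these, and no filter 1.51% with ferrostatin-1. The cause of each shift below was not tested.

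For TNF against control (9 members called) the count was 0 on these groups alone, 14 with the offset, 15 without TNF library 1 and control library 2, and 7 to 19 with 1 library left out. For TNF with ferrostatin-1 against TNF (4) it was 1 without the filter, 12 with DESeq2, 0 with voom and on these groups alone, and 0 to 25 with 1 library left out. For TNF with liproxstatin-1 against TNF (1) it was 9 with DESeq2, 0 with voom and on these groups alone, 6 without both libraries, 5 with the offset, and 0 to 26 with 1 left out.

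For TNF with ferrostatin-1 against ferrostatin-1 (9) the count was 15 with DESeq2, 25 with voom and on these groups alone, 19 with the offset, and 7 to 9 with 1 library left out. For TNF with liproxstatin-1 against liproxstatin-1 (11) it was 24 with voom, 25 on these groups alone, 18 with the offset, and 6 to 7 with 1 left out. For TNF with ferrostatin-1 against control (8) it was 22 with voom, 14 on these groups alone and with the offset, 21 without both libraries, and 5 to 9 with 1 left out. For TNF with liproxstatin-1 against control (8) it was 22 with voom and without both libraries, and 6 to 9 with 1 left out.

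For the compounds alone against control (0 each) DESeq2 gave 1 and voom 2 for either, and for ferrostatin-1 the offset and the fit without both libraries gave 1. For TNF with liproxstatin-1 against TNF with ferrostatin-1 (0) voom gave 2 and these groups alone 6, where 3.67% and 2.86% of tested genes were called. For the interaction with ferrostatin-1 (0) DESeq2 gave 4, the fit without both libraries 3, and leaving out 1 library 0 to 21. For that with liproxstatin-1 (0) DESeq2 gave 7, voom 2, the fit without both libraries 7, the offset 2, and leaving out 1 library 0 to 22.

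The cytosolic minus the mitochondrial median log2 change was, without both libraries, -0.64 for TNF against control (-0.33 with all), 0.16 for liproxstatin-1 against control (0.32), -0.46 for TNF with ferrostatin-1 against control (-0.26) and -0.76 for TNF with liproxstatin-1 against control (-0.59). With the offset it was 0.17 for TNF with ferrostatin-1 against TNF (0.02). With 1 library left out it ran from -0.51 to -0.24, 0.16 to 0.36, -0.46 to -0.25 and -0.76 to -0.36 in the first 4, and from -0.20 to -0.04 for TNF with liproxstatin-1 against TNF. WARS1 in TNF against control, at 0.14, was -0.02 with voom, -0.04 with the offset, -0.52 without both libraries, and -0.20 to 0.43 with 1 library left out.

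Libraries with the same number did not deviate together (correlations of 0.0345, 0.00247 and 0.0344 between TNF with ferrostatin-1 and control), so the numbers were not taken as pairs. With the replicate number as a block, 11 members were called for TNF with ferrostatin-1 against control and 10 for TNF with liproxstatin-1 against control. For the compounds compared in the presence of TNF the count was 0. In these 3 comparisons 18.8%, 11.7% and 0.38% of tested genes were called.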
